A study of Mus musculus with 61 samples.

Results

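The genes described here make cholesterol and fatty acids or control that synthesis. A gene was a member when its symbol in column 1 of each count file stood on a list of 30 symbols, and it was read where it had at least 10 reads in an experiment. All 30 of the 24421 genes in the files met this in each experiment. By role, 8 members act in the mevalonate arm (Acat2, Hmgcs1, Mvk, Pmvk, Mvd, Idi1, Fdps and Fdft1), 10 in the sterol arm after squalene (Sqle, Lss, Cyp51, Tm7sf2, Msmo1, Nsdhl, Hsd17b7, Ebp, Sc5d and Dhcr7) and 7 in fatty acid synthesis (Acly, Acss2, Acaca, Fasn, Elovl6, Scd1 and Scd2). A further 4 are regulators (Srebf1, Srebf2, Insig1 and Insig2) and 1 is a sterol transfer protein (Stard4).

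The study measured RNA in mouse lymphocytes carrying STAT5B with substitutions in the SH2 domain. In the first experiment, naive CD4+ T cells sorted from lymph nodes and spleens of 2-month-old C57BL/6 mice were activated, infected with retrovirus, kept 48 h with IL-2 and sorted as live CD4+GFP+ cells. The second used T cells isolated from splenocytes with an EasySep mouse kit, from 2-month-old homozygous knock-in mice labelled C57BL/6 and made in C57BL/6N, given IL-2 with IL-7 for 24 h. The third used unstimulated spleen material of the same genotypes.

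CD4 cells came from Cd4-Cre mice lacking Stat5a and Stat5b (null) or from WT mice, and received empty vector, STAT5B, N642H, Y665F or Y665H, with 3 libraries for each of the 10 groups. Cre acts in these mice from the double-positive stage of the thymus, in CD4 and CD8 cells alike. The vectors added protein on top of any endogenous STAT5B, so WT cells held both. The T cell experiment had 4 libraries each of WT, Y665H and Y665F with interleukins, and 3 of Y665F without interleukin. Library 4 of the Y665H T cells equaled the sum of libraries 1 and 2 in each of the 24421 genes, so this group held at most 3 separate samples. Tests on all 15 T cell libraries counted those reads again and shared an estimate of the spread, so every p-value for T cells rested on fewer separate samples than libraries. Counts of members and values of members that passed are also given without library 4, a choice made after seeing the data. There were 4 WT, 5 Y665H and 7 Y665F spleen libraries, for which the sources name both splenocytes and spleen. Reads on genes lay between 18825994 and 49850689 in CD4 libraries, between 2017012 and 27394249 for splenic T cells and between 24203179 and 43330536 for spleens. Genes below about 1 CPM therefore rested on few reads in the shallowest T cell libraries.

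Cholesterol is built from acetyl-CoA through mevalonate, farnesyl diphosphate and squalene, while fatty acids are built from malonyl-CoA and then lengthened and desaturated. The transcription factors SREBP1 and SREBP2, encoded by Srebf1 and Srebf2, drive most of these genes, and INSIG proteins hold the SREBP precursors in the endoplasmic reticulum when sterols are plentiful. Activated T cells raise this synthesis before they divide.

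Stat5a in null cells had CPM of 1.70, 3.13 and 6.66 with empty vector, 1.95, 2.44 and 5.39 with STAT5B, 2.19, 3.36 and 7.36 with N642H, 1.98, 4.94 and 14.9 with Y665H and 1.97, 3.94 and 8.45 with Y665F. In WT cells the same vectors gave 137, 165 and 172; 145, 154 and 179; 146, 137 and 171; 144, 163 and 166; and 139.5, 99.5 and 159. Every null library was far below every WT library, and library 3 was the highest of each null group. Stat5b in null cells had 2.78, 5.30 and 9.49 with empty vector, 355, 345 and 246 with STAT5B, 209, 255 and 186 with N642H, 239, 365 and 196 with Y665H and 221, 332 and 286 with Y665F. WT cells had 187, 209 and 208; 404, 518 and 564; 418, 444 and 439.8; 431, 532 and 523; and 406, 374 and 469. Stat5b was low only in null cells with empty vector, and every vector carrying STAT5B brought it into the range of, or above, WT cells with empty vector, apart from N642H library 3 of the null cells at 186 CPM. The label of every CD4 library gave floxed Stat5a/b as genotype, so the background was read from the titles, which these values matched.

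Proximal promoters, taken as 250 bases before to 50 after the start in RefSeq GRCm38.p6, were available for 24 of the 30 members and printed here for Hmgcs1, Mvd, Elovl6 and Acat2. They were searched on both strands for the letters TCACNCCAC (sterol regulatory element), CCAAT (bound by NF-Y), CACGTG (E-box) and TTCNNNGAA (STAT5). Only exact matches to these letters were counted, so a promoter without a match was not shown to lack a site. CCAAT stood in 22 of the 31 promoters of these members (21 of the 24 members) and in 37.4% of all 32851 promoters. Of the same 31, TCACNCCAC stood in 1 (Hmgcs1) and in 1.24% of all promoters, CACGTG in 4 (Dhcr7, Hsd17b7, Insig1 and Sc5d) and 7.15%, and TTCNNNGAA in 1 (Ebp) and 8.30%. Mvd, Elovl6 and Acat2 were printed for the number of comparisons in which they were called, and Hmgcs1 was added after the search because it alone held TCACNCCAC. Capitals mark matches, and positions count from the start base as 0. In Hmgcs1 (chr13:119690101-119690400, plus strand) TCACNCCAC lay at -137 to -129 and CCAAT at -237 to -233, -176 to -172, -45 to -41 and 10 to 14.

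Hmgcs1: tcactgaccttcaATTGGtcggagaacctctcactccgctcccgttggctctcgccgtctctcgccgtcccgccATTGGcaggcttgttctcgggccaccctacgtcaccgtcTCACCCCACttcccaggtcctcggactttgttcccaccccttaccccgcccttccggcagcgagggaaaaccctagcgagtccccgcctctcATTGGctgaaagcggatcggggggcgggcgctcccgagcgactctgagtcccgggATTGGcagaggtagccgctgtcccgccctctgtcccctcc

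In Mvd (chr8:122443373-122443672, minus strand) CCAAT lay at -60 to -56 and -27 to -23.

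Mvd: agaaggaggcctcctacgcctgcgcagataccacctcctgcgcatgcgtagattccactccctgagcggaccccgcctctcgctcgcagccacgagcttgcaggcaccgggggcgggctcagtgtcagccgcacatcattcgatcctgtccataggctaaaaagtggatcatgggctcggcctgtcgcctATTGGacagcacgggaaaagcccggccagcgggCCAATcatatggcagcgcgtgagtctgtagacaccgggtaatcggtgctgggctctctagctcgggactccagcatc

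Elovl6 (chr3:129532136-129532435, plus strand) and Acat2 (chr17:12960676-12960975, minus strand) had 0 matches to the 4 motifs.

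Elovl6: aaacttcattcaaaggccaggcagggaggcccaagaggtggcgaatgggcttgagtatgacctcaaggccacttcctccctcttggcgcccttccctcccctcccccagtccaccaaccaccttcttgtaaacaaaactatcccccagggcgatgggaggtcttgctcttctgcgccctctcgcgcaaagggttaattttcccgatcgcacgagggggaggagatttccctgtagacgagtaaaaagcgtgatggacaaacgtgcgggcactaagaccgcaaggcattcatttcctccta

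Acat2: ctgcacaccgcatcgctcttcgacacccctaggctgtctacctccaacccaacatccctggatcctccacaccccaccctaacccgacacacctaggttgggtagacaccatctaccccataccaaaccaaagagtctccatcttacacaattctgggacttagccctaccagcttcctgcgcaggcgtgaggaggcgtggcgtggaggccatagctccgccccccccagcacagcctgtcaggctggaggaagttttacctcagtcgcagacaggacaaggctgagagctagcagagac

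The clearest difference among CD4 cells lay between null and WT cells that both carried empty vector. HMGCS1 condenses acetyl-CoA units on the way to mevalonate, MVD makes isopentenyl diphosphate and FDPS joins such units into farnesyl diphosphate. ACAT2 makes the acetoacetyl-CoA that enters this arm. A bulk library cannot separate fewer cells expressing a gene from less RNA of it in each cell, and this holds for every result here.

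Hmgcs1 (chr13:119690379-119708260) had 286, 209 and 249 CPM in null and 628, 527 and 331 in WT cells. Mvd (chr8:122433601-122443422) had 29.1, 27.3 and 29.0 against 86.4, 104 and 52.5, and Fdps 114, 88.6 and 116 against 328, 346 and 159. For all 3 genes the null libraries lay below every WT library, and WT library 3 was the lowest WT value. Of the 30 members, 7 were called lower in null cells (edgeR quasi-likelihood, Benjamini-Hochberg adjusted p under 0.05 and log2 fold change beyond 1), as were 2.13% of the 21975 genes tested. At any fold, 21 members passed adjusted p under 0.05 as lower and 0 as higher, against 7.06% of all genes lower. Mvd fell by 1.50 ± 0.22 (log2, SE; adjusted p = 2.3e-05), Fdps by 1.39 ± 0.27 (adjusted p = 0.000805) and Hmgcs1 by 1.00 ± 0.25 (adjusted p = 0.00759) by edgeR. Hmgcs1 missed the adjusted threshold without null empty 2 (-0.88) or WT empty 1 (-0.79). Mvd and Fdps kept it without any single library.

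SQLE oxidizes squalene and commits it to sterols. Sqle had 115, 89.5 and 94.8 CPM in null and 209.9, 218 and 148 in WT cells. No null library reached the WT values. Sqle fell by 0.95 ± 0.18 (edgeR adjusted p = 0.000463), the same in all 3 null libraries and without any 1 library. By role, 7 of 8 mevalonate members, 6 of 10 sterol members, 5 of 7 fatty acid members, 3 of 4 regulators and 0 of 1 transfer protein passed adjusted p under 0.05. Insig2 alone of the 30 had a value above zero (0.06). The median over members was -0.66, and over all genes tested -0.12, or -0.00 when genes were filtered by filterByExpr. There were 26 members at unadjusted p under 0.05, and DESeq2 gave 24 at adjusted p under 0.05 (19.2% of all genes). With library number as a block, 25 passed by edgeR, all lower, beside 18.6% of all genes in either direction. Library numbers were not established as pairs across the 2 backgrounds.

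Fatty acids are finished by FASN, which builds palmitate, ELOVL6, which lengthens it, and SCD1 and SCD2, which put in the double bond that makes monounsaturated chains. Scd1 and Scd2 are close paralogs, and how reads common to such genes were counted was not given.

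Fasn had 257, 409 and 417 CPM in null and 569, 605 and 627 in WT cells. Elovl6 (chr3:129532355-129638495) had 37.9, 23.2 and 23.1 against 109, 114 and 58.1. All null values of both genes lay below all WT values, and WT library 3 was low for Elovl6 but not for Fasn. Scd1 (chr19:44394455-44407879) had 5.44, 3.33 and 4.80 CPM in null and 115, 83.9 and 21.6 in WT cells, and Scd2 450.2, 349.6 and 349 against 1046, 975 and 579.6. Scd1 was the member with the widest gap, with WT libraries 1 and 2 far above library 3 and every null library below all of them. By edgeR, Scd1 fell by 4.02 ± 0.74 (adjusted p = 0.000402), Elovl6 by 1.74 ± 0.30 (adjusted p = 0.000239), Scd2 by 1.18 ± 0.30 (adjusted p = 0.00892) and Fasn by 0.74 ± 0.21 (adjusted p = 0.0207). Fasn passed no longer without null empty 1 (-0.54), WT empty 2 (-0.73) or WT empty 3 (-0.69). Scd1, Elovl6 and Scd2 passed without any single library.

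SREBP1 and SREBP2 switch these genes on, and INSIG1 retains their precursors. Srebf1 had 125, 156 and 138 CPM in null and 179, 206 and 204 in WT cells, Srebf2 418, 497 and 491 against 563, 704 and 619.7, and Insig1 131, 107 and 101 against 201, 193 and 149. The null values of each were below all WT values, by narrower gaps than for Scd1 or Mvd. Srebf1 fell by 0.49 ± 0.17 (edgeR adjusted p = 0.0484), Srebf2 by 0.42 ± 0.12 (adjusted p = 0.0192) and Insig1 by 0.68 ± 0.18 (adjusted p = 0.011). Srebf1 lost its call without null empty 1 (-0.42), null empty 2 (-0.57), null empty 3 (-0.48), WT empty 1 (-0.55), WT empty 2 (-0.46) or WT empty 3 (-0.45). Srebf2 lost it without null empty 1 (-0.35) or WT empty 2 (-0.34), and Insig1 without null empty 2 (-0.63), null empty 3 (-0.61), WT empty 1 (-0.60) or WT empty 2 (-0.63).

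Over the whole list, 13 members instead of 21 passed adjusted p under 0.05 without null empty 2 or without WT empty 1, and 12 without WT empty 2. The called count ran from 6 to 10 over single libraries left out. Without the 5 WT libraries numbered 3 (chosen after seeing the data), 10 members were called and 27 passed at any fold. For these fits with libraries left out, the share over all genes is not given here, so the counts were not compared with it. Summed over members, null cells with empty vector had 3544, 3246 and 3353 CPM and WT cells 6399, 6431 and 4579. WT library 3 thus lay between the null libraries and the other WT libraries.

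Other features differed between the same libraries. The 10 proliferation genes summed to 4684, 4188 and 3729 CPM in null and 6000.0, 6728 and 5300.0 in WT cells, and 10 of 10 fell (median -0.56). The 6 STAT5 targets summed to 340.1, 402 and 463 against 3288, 3667 and 2232, with Il2ra the most abundant in 29 of 30 CD4 libraries, and 6 of 6 were called lower. The 8 T cell genes summed to 3908, 3731 and 3340.0 against 2775, 3317 and 2997, with Cd4 at the top. Whether the rate of division accounts for the difference in lipid genes was not tested, and in these bulk libraries the 2 cannot be told apart. Over all CD4 libraries, marker sums were 0.498 to 5.42 CPM for B cells, 1.39 to 5.46 for erythroid cells, 0 to 5.11 for neutrophils, 2.28 to 8.63 for macrophages, 0.0938 to 1.24 for adipocytes, 0 to 0.656 for liver and 1.53 to 5.05 for pancreas.

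Other genes of lipid handling were read beside the members. FADS2 desaturates dietary fatty acids, FABP5 carries fatty acids and ABCA1 exports cholesterol. Fads2 fell by 2.26 ± 0.36 and Fabp5 by 1.40 in null cells, while Abca1 rose by 1.90 ± 0.34 (edgeR adjusted p = 7.99e-05, 0.000253 and 0.000352).

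**Figure D1:**
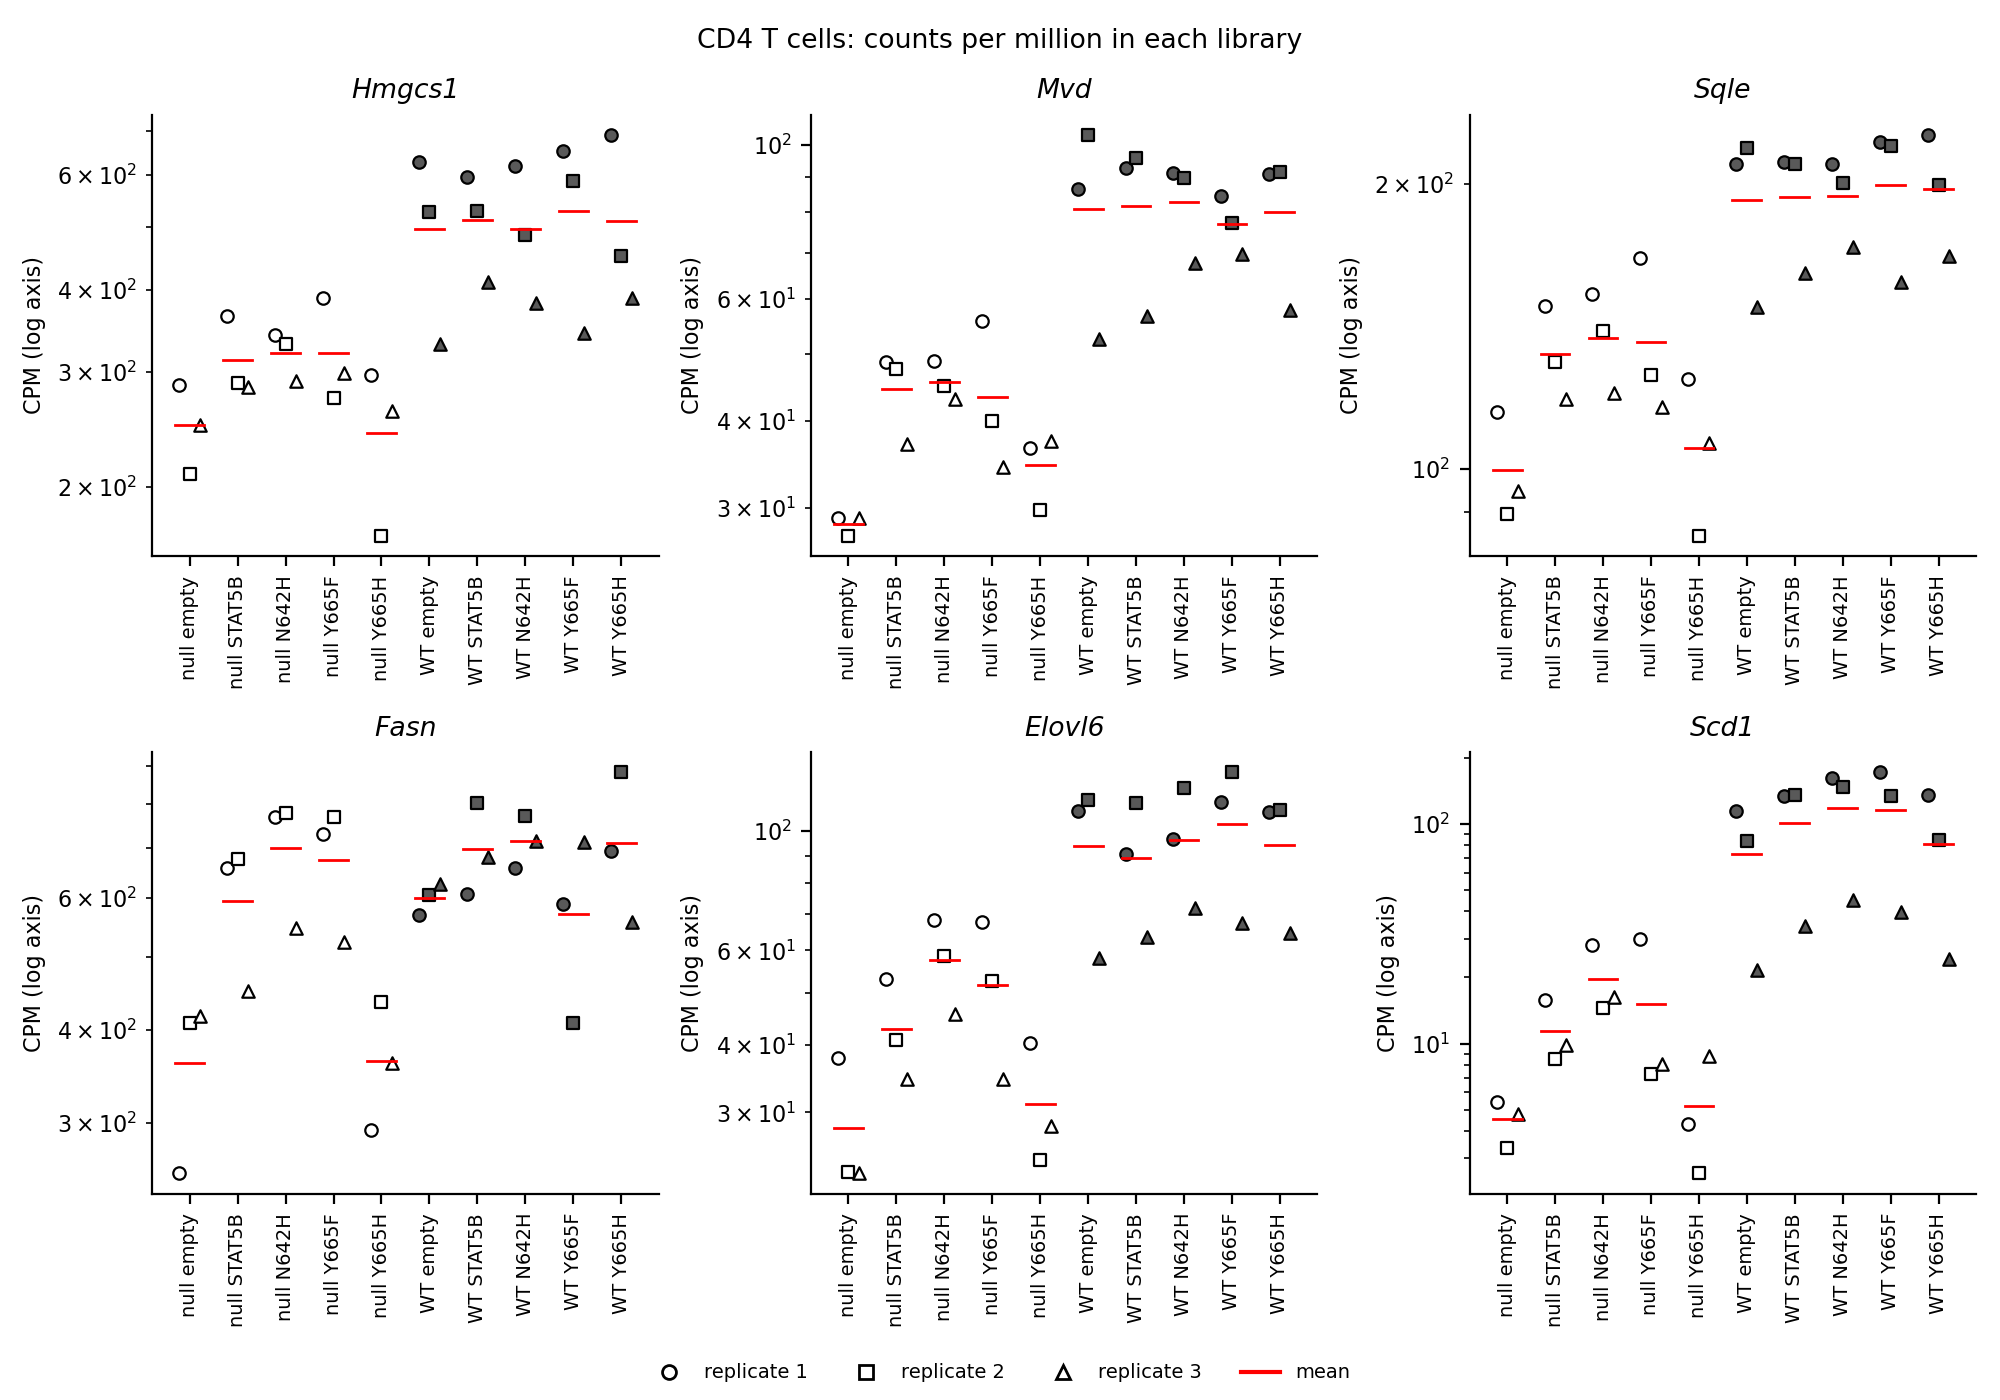
CPM (log axis) of Hmgcs1, Mvd, Sqle, Fasn, Elovl6 and Scd1 in each CD4 library, with open symbols for null and filled symbols for WT cells, shape for library number and a red line at the group mean. Null cells with empty vector or Y665H hold the lowest symbols, and library 3 of each WT group is low for Scd1.

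In null cells the vectors put a single form of STAT5B into cells without their own, so each group could be read against empty vector. These 4 comparisons used the same 3 empty-vector libraries and are therefore not independent. By residuals over all genes, 30 of 30 pairs with the same library number correlated above 0.1 in null cells, and 29 of 30 in WT cells. Pairing was taken as established only where every pair did so over all genes, in null cells. The median correlation of these pairs was 0.465 in null and 0.649 in WT cells. Over the members alone, 27 of 30 pairs exceeded 0.1 in null and 29 of 30 in WT cells.

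Hmgcs1 in null cells had 364, 288 and 284 CPM with STAT5B, 341, 331 and 289.8 for N642H, 389, 273 and 299 for Y665F and 296, 168 and 261 for Y665H. Mvd had 48.7, 47.6 and 37.1; 48.8, 45.0 and 43.0; 55.9, 40.0 and 34.4; and 36.6, 29.8 and 37.5 in the same order. Mvd was above every empty-vector library in all libraries with each of the 4 vectors, while Hmgcs1 was above them throughout with N642H only. Within each library number, Hmgcs1 was above empty vector with STAT5B, N642H and Y665F, but not with Y665H. With STAT5B, 1 of 30 members (Mvd) passed adjusted p under 0.05, as did 1.52% of the 20113 genes tested. By edgeR, Mvd rose by 0.64 ± 0.15 (SE; adjusted p = 0.0448) with STAT5B in 3 of 3 libraries, and did not pass without null empty 1 (0.64), null empty 2 (0.62), null empty 3 (0.64), STAT5B 1 (0.56) or STAT5B 2 (0.54). None of the other 29 passed, 12 had unadjusted p under 0.05, and DESeq2 gave 5 (7.02% of all genes). With library number as a block, 10 passed beside 9.50% of all genes, among them Scd1 at 1.32 (adjusted p = 0.0157), Elovl6 at 0.62 (adjusted p = 0.00325) and Mvd at 0.63 (adjusted p = 0.00355).

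With N642H, 2 members (Scd1 and Elovl6) were called higher beside 1.58% of all genes, and 6 passed at any fold beside 5.67%. Mvd rose by 0.65 ± 0.15 (SE; adjusted p = 0.00978) by edgeR, in 3 of 3 libraries, and failed to pass without N642H 1 (0.62). Fdps had 161, 156 and 168 CPM with N642H, 160.2, 170.0 and 138 with STAT5B, 188, 125 and 122 with Y665F and 123, 92.6 and 154 with Y665H. The N642H values were the more even and all above empty vector, while 1 Y665H library lay inside the empty-vector range. Fdps rose by 0.57 ± 0.17 (SE; adjusted p = 0.0403) with N642H by edgeR in 3 of 3 libraries, but not without null empty 1 (0.66), null empty 2 (0.46), N642H 1 (0.60), N642H 2 (0.59) or N642H 3 (0.60). The unadjusted p was under 0.05 for 13 members, DESeq2 gave 10 at adjusted p under 0.05 beside 17.6% of all genes in either direction, and the block gave 15 (14 higher and 1 lower) beside 20.5%. All genes passed in either direction at 11.6% in the fit without the block.

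With Y665F, 1 member (Scd1) was called higher beside 1.39% of all genes and 5 passed at any fold beside 5.16%. Acat2 had 36.3, 29.0 and 30.6 CPM with empty vector and 54.9, 41.7 and 38.2 with Y665F. All Y665F libraries were above all empty-vector libraries, library 3 by little. Acat2 rose by 0.46 ± 0.14 (SE; adjusted p = 0.0477) by edgeR, lost without null empty 2 (0.40), null empty 3 (0.44), Y665F 1 (0.30) or Y665F 2 (0.55), and Mvd by 0.58 ± 0.15 (SE; adjusted p = 0.0214), lost without null empty 1 (0.63), null empty 2 (0.56) or Y665F 1 (0.36). The unadjusted p was under 0.05 for 12, DESeq2 gave 9 (8 higher and 1 lower) beside 15.6% of all genes in either direction, and the block 12 (11 higher and 1 lower) beside 18.4%, against 9.58% without the block.

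With Y665H, 0 of 30 members passed by edgeR, beside 0.0249% of all genes, with 0 at unadjusted p under 0.05 and 0 by DESeq2. Member values ran from -0.19 (Hsd17b7) to 0.30 (Mvd). The medians over members were 0.24 for STAT5B, 0.25 for N642H, 0.26 for Y665F and 0.03 for Y665H, and over all genes 0.00, 0.01, -0.02 and 0.04. Above zero stood 28, 26, 26 and 17 of the 30.

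Sqle had 149, 129.6 and 118 CPM with STAT5B, 153, 139.7 and 120.1 for N642H, 167, 126 and 116 for Y665F and 124, 85.0 and 106 for Y665H. All 9 libraries of the first 3 vectors were above the 3 empty-vector libraries, while Y665H lay on both sides of them. Its edgeR difference from empty vector was 0.40 (adjusted p = 0.215), 0.43 (0.0835) and 0.42 (0.1) for those 3 vectors, none past the threshold. With the block, Sqle passed with STAT5B (0.40, adjusted p = 0.0124), N642H (0.43, adjusted p = 0.0029) and Y665F (0.41, adjusted p = 0.00455).

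Fasn in null cells had 657, 676 and 450.4 CPM with STAT5B, 769.9, 779 and 547 for N642H, 729.7, 769.5 and 523 for Y665F and 293, 436 and 361 for Y665H. Elovl6 had 53.1, 40.9 and 34.5; 68.3, 58.7 and 45.6; 67.7, 52.7 and 34.6; and 40.4, 24.5 and 28.3. Fasn was above all empty-vector libraries in every library of the first 3 vectors. Elovl6 was above them in every N642H library and in 2 of 3 with STAT5B or Y665F. Y665H overlapped empty vector for both genes. Within each library number, Elovl6 was above empty vector with every vector, Y665H included. With N642H, Fasn rose by 0.92 ± 0.22 (SE; adjusted p = 0.0101) and Elovl6 by 1.01 ± 0.25 (SE; adjusted p = 0.0122) by edgeR. Fasn dropped out without N642H 2 (0.82) and Elovl6 without null empty 2 (0.89) or N642H 1 (0.89). With Y665F, Fasn rose by 0.87 ± 0.22 (SE; adjusted p = 0.0163) and Elovl6 by 0.86 ± 0.25 (SE; adjusted p = 0.035) by edgeR, in 3 and 2 of 3 libraries. Fasn dropped out without null empty 1 (0.71), Y665F 1 (0.82) or Y665F 2 (0.80) and Elovl6 without null empty 2 (0.74), null empty 3 (0.74), Y665F 1 (0.62) or Y665F 2 (0.88). With STAT5B neither passed (Fasn 0.71, adjusted p = 0.11), but with the block both did (Fasn 0.70, adjusted p = 0.0135, and Elovl6 0.62, adjusted p = 0.00325).

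Scd1 in null cells had 15.8, 8.50 and 9.88 CPM with STAT5B, 28.1, 14.5 and 16.4 for N642H, 29.9, 7.30 and 8.05 for Y665F and 4.30, 2.56 and 8.74 for Y665H. Scd2 had 687, 508 and 432; 709, 615 and 516; 753, 458 and 413; and 437, 275 and 434. Scd1 was above every empty-vector library in all libraries with STAT5B, N642H and Y665F, with library 1 far above the others for Y665F, and Y665H lay on both sides. Scd1 rose by 2.09 ± 0.49 (SE; adjusted p = 0.00933) with N642H and by 1.71 ± 0.49 (SE; adjusted p = 0.0328) with Y665F by edgeR. With N642H it was lost without null empty 2 (1.91) or N642H 1 (1.76). With Y665F it was lost without null empty 1 (1.91), null empty 2 (1.54), null empty 3 (1.76) or Y665F 1 (0.74). With STAT5B, Scd1 stood at 1.33 ± 0.49 (adjusted p = 0.187). Scd2 was 0.50, 0.65 and 0.47 for STAT5B, N642H and Y665F (edgeR adjusted p = 0.304, 0.0726 and 0.226), and with the block it passed with STAT5B (0.48, adjusted p = 0.0344), N642H (0.65, adjusted p = 0.00205) and Y665F (0.44, adjusted p = 0.0326).

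Srebf1 had 213, 192 and 151 CPM with STAT5B, 186, 173 and 150.0 for N642H, 189.8, 165 and 135 for Y665F and 96.7, 163 and 133 for Y665H. Srebf2 had 591, 602 and 491; 569.9, 576 and 505; 603, 537 and 531; and 383, 491 and 427. Insig1 had 159, 126 and 110.4; 143, 128 and 113; 151, 115 and 108; and 142, 91.1 and 109.6. Srebf1 and Insig1 overlapped empty vector with every vector, and Srebf2 was above it with N642H and Y665F only. Within each library number, Srebf1 was above empty vector with STAT5B and N642H, and Insig1 with STAT5B, N642H and Y665F. None of these 3 regulators passed with any vector by edgeR. Their adjusted p-values were 0.452, 0.372 and 0.674 with N642H and 0.592, 0.33 and 0.778 with Y665F.

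In the fits without library number, the counts of members past the threshold hung on single libraries. No library was left out of the fits with the block. With N642H, 2 were called, but 0 without N642H 1, 1 without null empty 2 or N642H 2, and 3 without N642H 3. At any fold, 6 became 2 without null empty 2, 1 without N642H 1 and 3 without N642H 2. With Y665F, the called count of 1 became 0 without null empty 2 or Y665F 1 and 3 without Y665F 3. At any fold, 5 became 2 without null empty 1, null empty 3 or Y665F 2, 1 without null empty 2 and 0 without Y665F 1. With STAT5B, the count of 1 became 0 without null empty 1, 2 or 3 or STAT5B 1 or 2.

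Summed over members, null cells had 4820.0, 4380.0 and 3723 CPM with STAT5B, 4919, 4732 and 4053 for N642H, 5260.0, 4234 and 3867 for Y665F and 3512, 3008 and 3433 for Y665H. The STAT5 targets summed to 1840.0, 1632 and 1262; 3041, 3301 and 2379; 2764, 3234 and 2020.0; and 586, 669.9 and 573. Among these vectors, both sums were lowest with Y665H. Its STAT5 target sums lay above every empty-vector library, while its member sums overlapped empty vector. Of the 6 targets, 5 were called with STAT5B, 6 for N642H, 6 for Y665F and 1 (Socs2) for Y665H. Proliferation genes summed to 5137, 5060.0 and 4506; 5080.0, 5374 and 4393; 5163, 5277 and 4683; and 5027, 4016 and 3814, and 2, 3 and 3 of 10 rose with STAT5B, N642H and Y665F. How far members followed division was not tested.

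Among the other lipid genes, CH25H makes 25-hydroxycholesterol. Fabp5 rose by 0.83, 1.24 and 1.14 with STAT5B, N642H and Y665F (edgeR adjusted p = 0.0217, 0.000193 and 0.000511). Ch25h rose by 6.60 ± 1.11 with N642H (edgeR adjusted p = 0.000896) and 4.83 with Y665F (adjusted p = 0.0134).

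**Figure D2:**
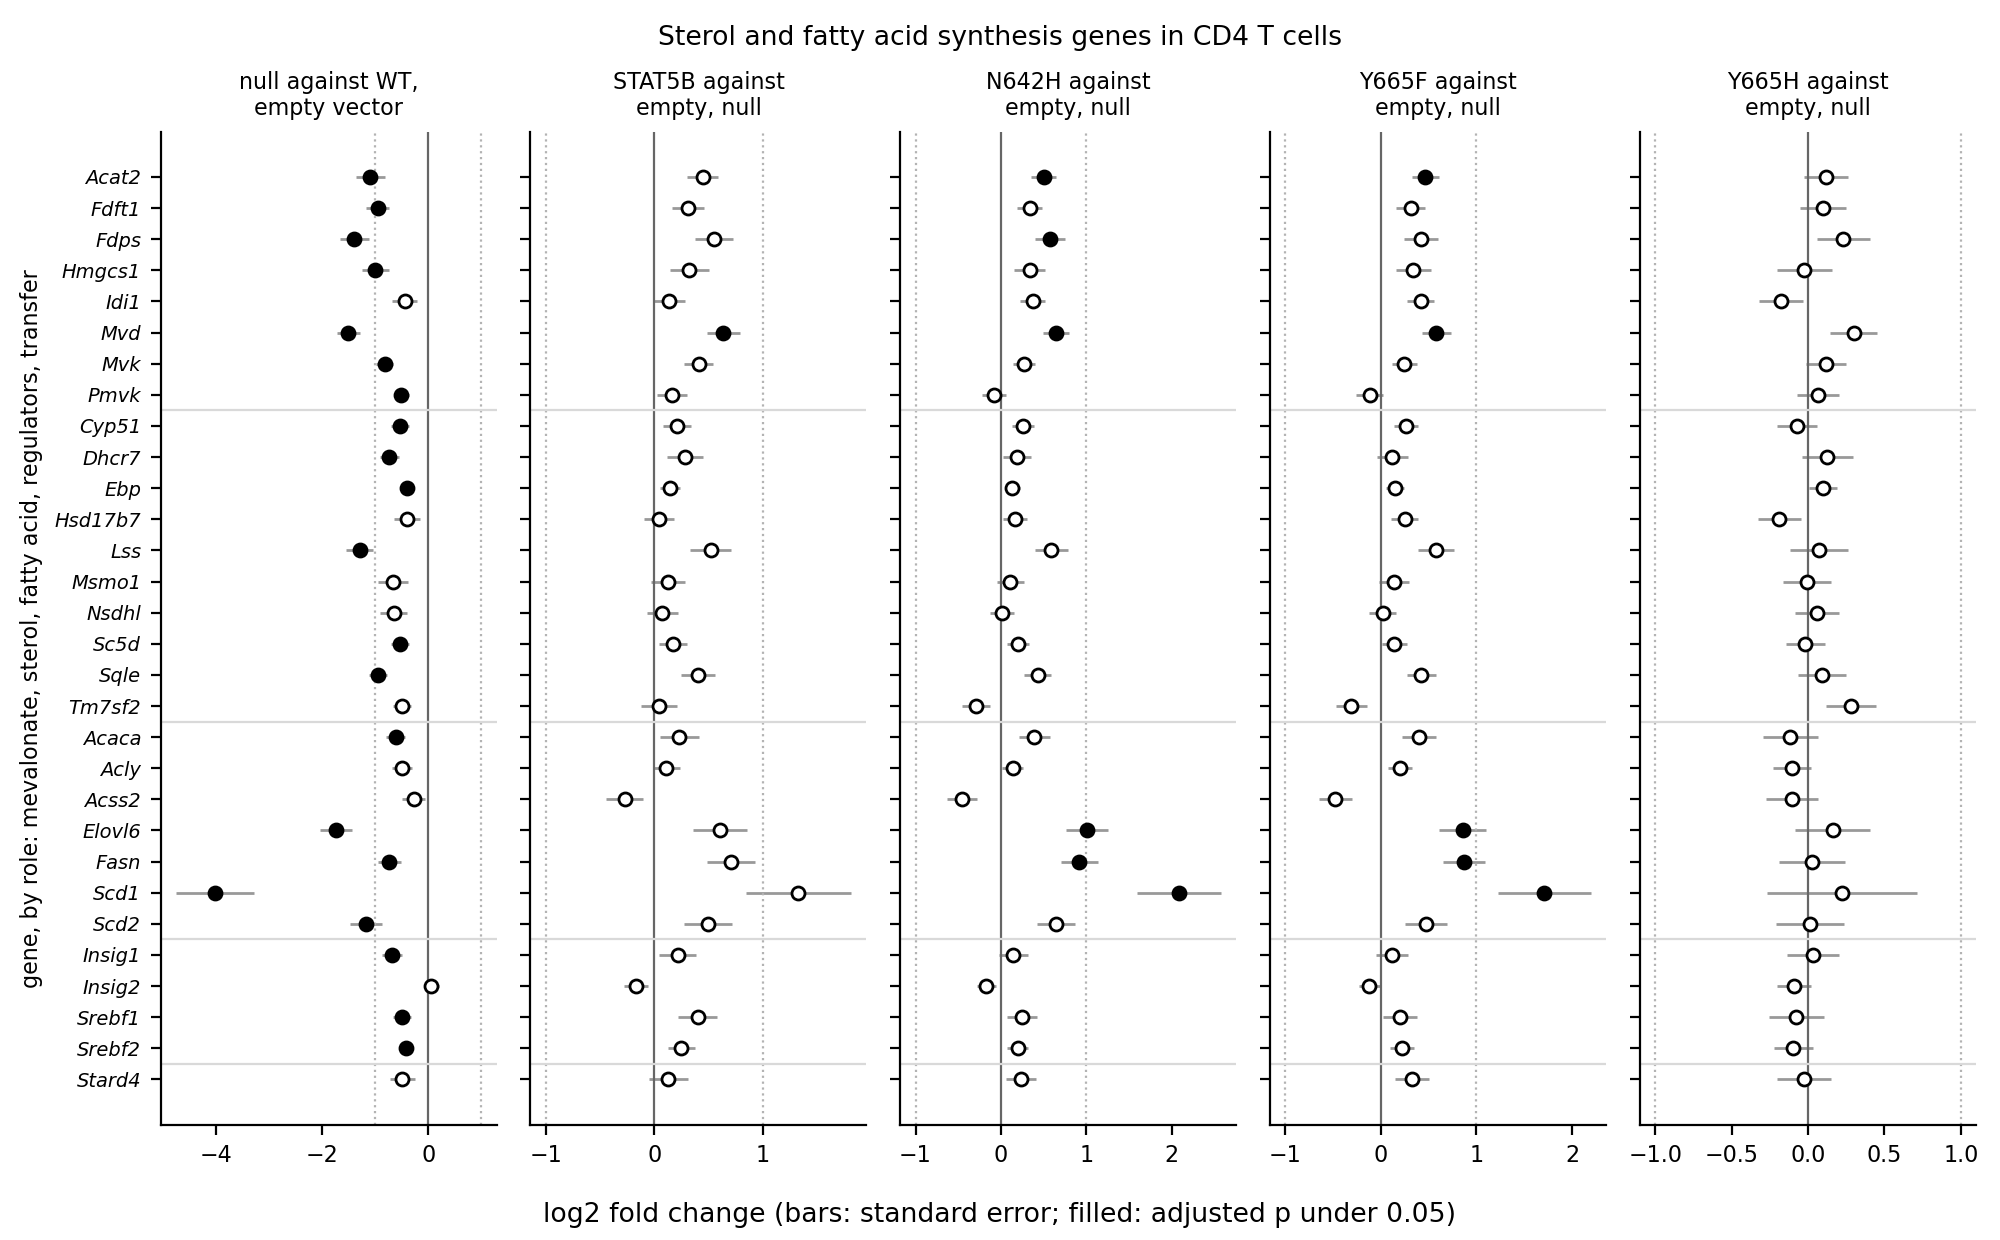
Log2 fold changes with SE of the 30 members in null cells with each vector against empty vector and in null against WT cells with empty vector. Filled points have adjusted p under 0.05, dotted lines mark -1 and 1, and panels differ in horizontal range. Most members lie right of zero with STAT5B, N642H and Y665F, around zero with Y665H and left of zero in null cells.

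Mutants against STAT5B in null cells gave no member past adjusted p under 0.05 by edgeR, with N642H (0.0845% of all genes), Y665F (0.0199%) or Y665H (0.229%). At unadjusted p under 0.05 there were 0, 1 and 11, and DESeq2 gave 0, 0 and 0. Values ran from -0.33 (Tm7sf2) to 0.76 (Scd1) for N642H, from -0.35 to 0.38 (Scd1) for Y665F and from -1.11 (Scd1) to 0.24 (Tm7sf2) for Y665H. Above zero stood 18, 15 and 3 of the 30, with medians of 0.02, 0.00 and -0.28 against -0.01, -0.02 and 0.06 over all genes. With the block, Elovl6 (-0.44, adjusted p = 0.0435) and Fasn (-0.68, adjusted p = 0.0276) passed as lower with Y665H, beside 4.18% of all genes in either direction. These comparisons share the STAT5B libraries.

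WT cells kept their own STAT5 proteins, and the vectors were read against WT cells with empty vector. The 4 comparisons share those 3 libraries.

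Hmgcs1 in WT cells had 595, 528 and 411 CPM with STAT5B, 619, 486 and 382 for N642H, 652, 587 and 344 for Y665F and 691, 451 and 389 for Y665H. Sqle had 211, 209.6 and 161; 209.8, 200.5 and 171; 221, 219 and 157; and 225, 199 and 168. Both overlapped empty vector with every vector, and library 3 was lowest in each group. Fasn had 608, 804 and 681; 658, 772 and 716; 589, 409 and 713; and 694, 884 and 557, and Scd1 134, 136 and 34.3; 162, 147 and 44.9; 172, 135 and 39.8; and 136, 84.2 and 24.3. Scd2 had 1096, 1260.0 and 711; 1438, 1333 and 754; 1381, 1200.0 and 662; and 1231, 995 and 607. Scd1 and Scd2 were again lowest in library 3 of each group, and every vector overlapped empty vector. Within each library number, both genes were above empty vector with STAT5B, N642H and Y665F.

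Srebf1 in WT cells had 177, 218 and 204 CPM with STAT5B, 191, 204 and 209.9 for N642H, 168, 137 and 203 for Y665F and 208, 239 and 179.6 for Y665H. Srebf2 had 566, 666 and 622; 598, 609.6 and 613; 531, 463 and 595; and 678, 734 and 612. Insig1 had 189, 177 and 172; 205, 169 and 147; 198, 153 and 136; and 219, 175 and 150.3. Y665F library 2 was the lowest WT value of Srebf1, Srebf2 and Fasn, and the groups overlapped.

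By edgeR, 0 of 30 members passed adjusted p under 0.05 with STAT5B (0.00975% of 20509 genes), N642H (1.52%), Y665F (1.26%) or Y665H (0.00488%) against empty vector, in a fit that took no account of library number. The same held against STAT5B for N642H (0.00488%), Y665F (0%) and Y665H (0.00488%). In all 7 comparisons 0 members had unadjusted p under 0.05 and DESeq2 gave 0. With library number as a block, 1 member (Scd1) passed as higher with STAT5B against empty vector, beside 1.09% of all genes. With N642H 4 did (Scd1, Scd2, Acat2 and Lss) beside 8.28%, and with Y665F 3 (Scd1, Scd2 and Acat2) beside 12.0%. With Y665H 0 passed with the block. Against empty vector the largest values were 0.48, 0.70 and 0.65 for STAT5B, N642H and Y665F, each of them Scd1, and 0.24 (Fasn) for Y665H, and the lowest -0.12 (Ebp), -0.19 (Ebp), -0.23 (Srebf2) and -0.06 (Mvk). Medians over members were 0.07, 0.06, 0.12 and 0.04, against -0.02, -0.04, -0.08 and -0.01 over all genes. Of the STAT5 targets, 1 of 6 was called with N642H and 1 with Y665F.

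In the fits without library number, Scd1, Elovl6, Fasn, Mvd, Fdps and Acat2 passed in null and not in WT cells, so the response in null minus that in WT cells was tested. By edgeR, 0 members passed for STAT5B (0.105% of 21975 genes), N642H (0.387%), Y665F (0.478%) or Y665H (0.00455%). At unadjusted p under 0.05 there were 1, 5, 4 and 0, and DESeq2 gave 0 for each. The largest were Scd1 at 1.44 ± 0.93 (adjusted p = 0.626) for N642H and 1.08 ± 0.94 (adjusted p = 0.773) for Y665F, followed by Elovl6 at 1.00 ± 0.42 (adjusted p = 0.407) for N642H and Fasn at 0.98 ± 0.30 (adjusted p = 0.232) for Y665F. Medians over members were 0.27, 0.24, 0.22 and -0.03, against 0.05, 0.11, 0.07 and 0.04 over all genes. The N642H median over all genes was 0.00 after filterByExpr. The call in WT cells depended on whether library number entered the fit. So did that of Elovl6 for the N642H response, which passed by edgeR with the block (0.96, adjusted p = 0.038), beside 1.48% of all genes. Library numbers were not established as pairs over both backgrounds. A member short of the threshold was not shown to respond alike in both backgrounds.

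Splenic T cells were compared with and without interleukins in Y665F mice only. CYP51 removes a methyl group from lanosterol, HSD17B7 acts later in the same arm, and ACACA makes malonyl-CoA for fatty acids. The labels gave no culture time for the group without interleukin, and unstimulated T cells were described as taken right after isolation, so culture for 24 h and interleukin cannot be told apart.

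Acat2 (chr17:12942890-12960747) had 94.2, 122, 58.9 and 65.4 CPM with and 11.9, 19.9 and 14.0 without interleukin. Mvd had 8.31, 7.29, 4.88 and 7.56 against 3.32, 2.60 and 2.08, and Elovl6 135, 158, 107 and 112 against 41.0, 66.1 and 46.9. All 4 libraries with interleukin exceeded all 3 without for these genes. Of the 30 members, 8 were called higher by edgeR beside 2.27% of 22313 genes, and 10 passed as higher at any fold beside 2.94%, with 0 lower. Without Y665H library 4, 6 were called (Acat2, Elovl6, Cyp51, Acaca, Sqle and Hsd17b7) beside 2.63% of 22295 genes in either direction, and no other member passed, beside 3.08% at any fold. Acat2 rose by 2.48 ± 0.28 (SE; adjusted p = 4.96e-06) and Elovl6 by 1.32 ± 0.23 (SE; adjusted p = 0.00072), or by 2.48 (adjusted p = 7.67e-06) and 1.31 (adjusted p = 0.0017) without that library. Both passed without any single library of the 2 groups. Mvd passed with all 15 libraries (1.43 ± 0.41, adjusted p = 0.0478) and not without Y665H library 4 (1.44, adjusted p = 0.0628), Y665F 1 (1.35), Y665F 2 (1.42), Y665F 4 (1.40), Y665F no interleukin 1 (1.58), Y665F no interleukin 2 (1.42) or Y665F no interleukin 3 (1.27). By role the 6 were 1 of 8 mevalonate, 3 of 10 sterol, 2 of 7 fatty acid and 0 of 4 regulator members.

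Cyp51 had 104, 96.0, 128 and 83.8 CPM with and 37.8, 49.3 and 44.0 without interleukin, and Acaca 90.6, 98.3, 97.3 and 80.7 against 37.0, 45.0 and 39.4. Sqle had 29.0, 29.2, 32.0 and 18.0 against 12.4, 12.5 and 11.3. None of the 3 genes overlapped between the groups, and Sqle library 4 with interleukin lay nearest to the others. Cyp51 rose by 1.23 ± 0.22 (SE; adjusted p = 0.000999), Acaca by 1.18 ± 0.19 (SE; adjusted p = 0.000292) and Sqle by 1.16 ± 0.25 (SE; adjusted p = 0.00719) by edgeR. They stood at 1.22 (adjusted p = 0.00214), 1.17 (adjusted p = 0.000996) and 1.15 (adjusted p = 0.0129) without Y665H library 4. Cyp51 and Acaca, chosen after the values were seen, passed without any single library of the 2 groups, and Sqle not without Y665F no interleukin 3 (1.11).

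Hsd17b7 had 17.0, 15.7, 10.4 and 12.2 CPM with and 8.35, 4.89 and 6.10 without interleukin, and Fdps 20.6, 11.0, 4.88 and 13.8 against 6.00, 4.20 and 5.36. Hsd17b7 did not overlap between the groups, while Fdps was above all 3 libraries without interleukin in 3 of 4. Hsd17b7 rose by 1.12 ± 0.28 (SE; adjusted p = 0.0219) by edgeR, or by 1.12 (adjusted p = 0.0408) without Y665H library 4, and was lost without Y665F 1 (1.01), Y665F 2 (1.05), Y665F no interleukin 2 (0.95) or Y665F no interleukin 3 (1.08). Fdps stood at 1.32 ± 0.35 (adjusted p = 0.0335), and did not pass without Y665H library 4 (1.32, adjusted p = 0.0504), Y665F 1 (0.99), Y665F 4 (1.28), Y665F no interleukin 1 (1.40), Y665F no interleukin 2 (1.18) or Y665F no interleukin 3 (1.34). Msmo1 (0.89, adjusted p = 0.0433) and Lss (0.83, adjusted p = 0.0293) passed with all 15 libraries, but not without Y665H library 4, at 0.88 (adjusted p = 0.0743) and 0.83 (adjusted p = 0.0671). Msmo1 was also lost without Y665F 1 (0.84), Y665F 2 (0.85), Y665F no interleukin 1 (0.70), Y665F no interleukin 2 (0.89) or Y665F no interleukin 3 (1.05), and Lss without Y665F 1 (0.82), Y665F 2 (0.86), Y665F 4 (0.82), Y665F no interleukin 1 (0.75), Y665F no interleukin 2 (0.85) or Y665F no interleukin 3 (0.86).

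Hmgcs1 had 118, 106, 76.9 and 68.2 CPM with and 83.1, 69.1 and 73.0 without interleukin, Srebf1 23.6, 21.9, 6.71 and 23.9 against 14.2, 11.2 and 16.3, and Srebf2 47.3, 52.5, 47.0 and 60.0 against 41.9, 35.2 and 56.8. Insig1 had 62.4, 52.3, 53.4 and 40.2 against 35.8, 30.01 and 37.4, and Fasn 115, 106, 50.6 and 94.8 against 44.0, 35.6 and 52.9. Insig1 did not overlap between the groups and the other 4 genes did. None of the 5 passed by edgeR: Hmgcs1 0.30 (adjusted p = 0.512), Srebf1 0.48 (0.596), Srebf2 0.21 (0.742), Insig1 0.60 (0.0977) and Fasn 1.06 (0.135). Without Y665F 3, Fasn passed (1.25).

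The median over members was 0.70 and over all genes -0.13, and 28 of 30 were above zero. With RLE scaling these medians were 0.54 and -0.28, and with DESeq2 0.55 and -0.27. In all, 19 members had unadjusted p under 0.05, and DESeq2 gave 13 (12 higher and 1 lower) beside 6.65% of all genes. The called count of 8 was 4 without library 3 of the group without interleukin. At any fold, 10 became 4 without that library and 6 without Y665F 2 or without library 1 or 2 of the group without interleukin. Summed over members there were 1507, 1463, 1167 and 1155 CPM with and 765, 754 and 864 without interleukin. Proliferation genes summed to 676, 497, 692 and 552 against 166, 272 and 186 (6 of 10 rose with all 15 libraries and 5 without Y665H library 4) and STAT5 targets to 2378, 2812, 1871 and 2122 against 321, 1031 and 449, Bcl2 being the most abundant target in all 15 libraries. Reads without a gene were 67.6, 72.8, 84.0 and 79.6% of reads with and 85.7, 82.0 and 77.7% without interleukin. Whether members followed division was not tested.

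Of the other lipid genes, Abca1 (-1.32, adjusted p = 0.00311) and Mylip (-1.16, adjusted p = 0.000427) fell with interleukin by edgeR, at -1.32 (adjusted p = 0.00626) and -1.17 (adjusted p = 0.00151) without Y665H library 4. Without that library, 3 of the 30 other lipid genes passed as higher and 2 as lower. MYLIP is a ubiquitin ligase.

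**Figure D3:**
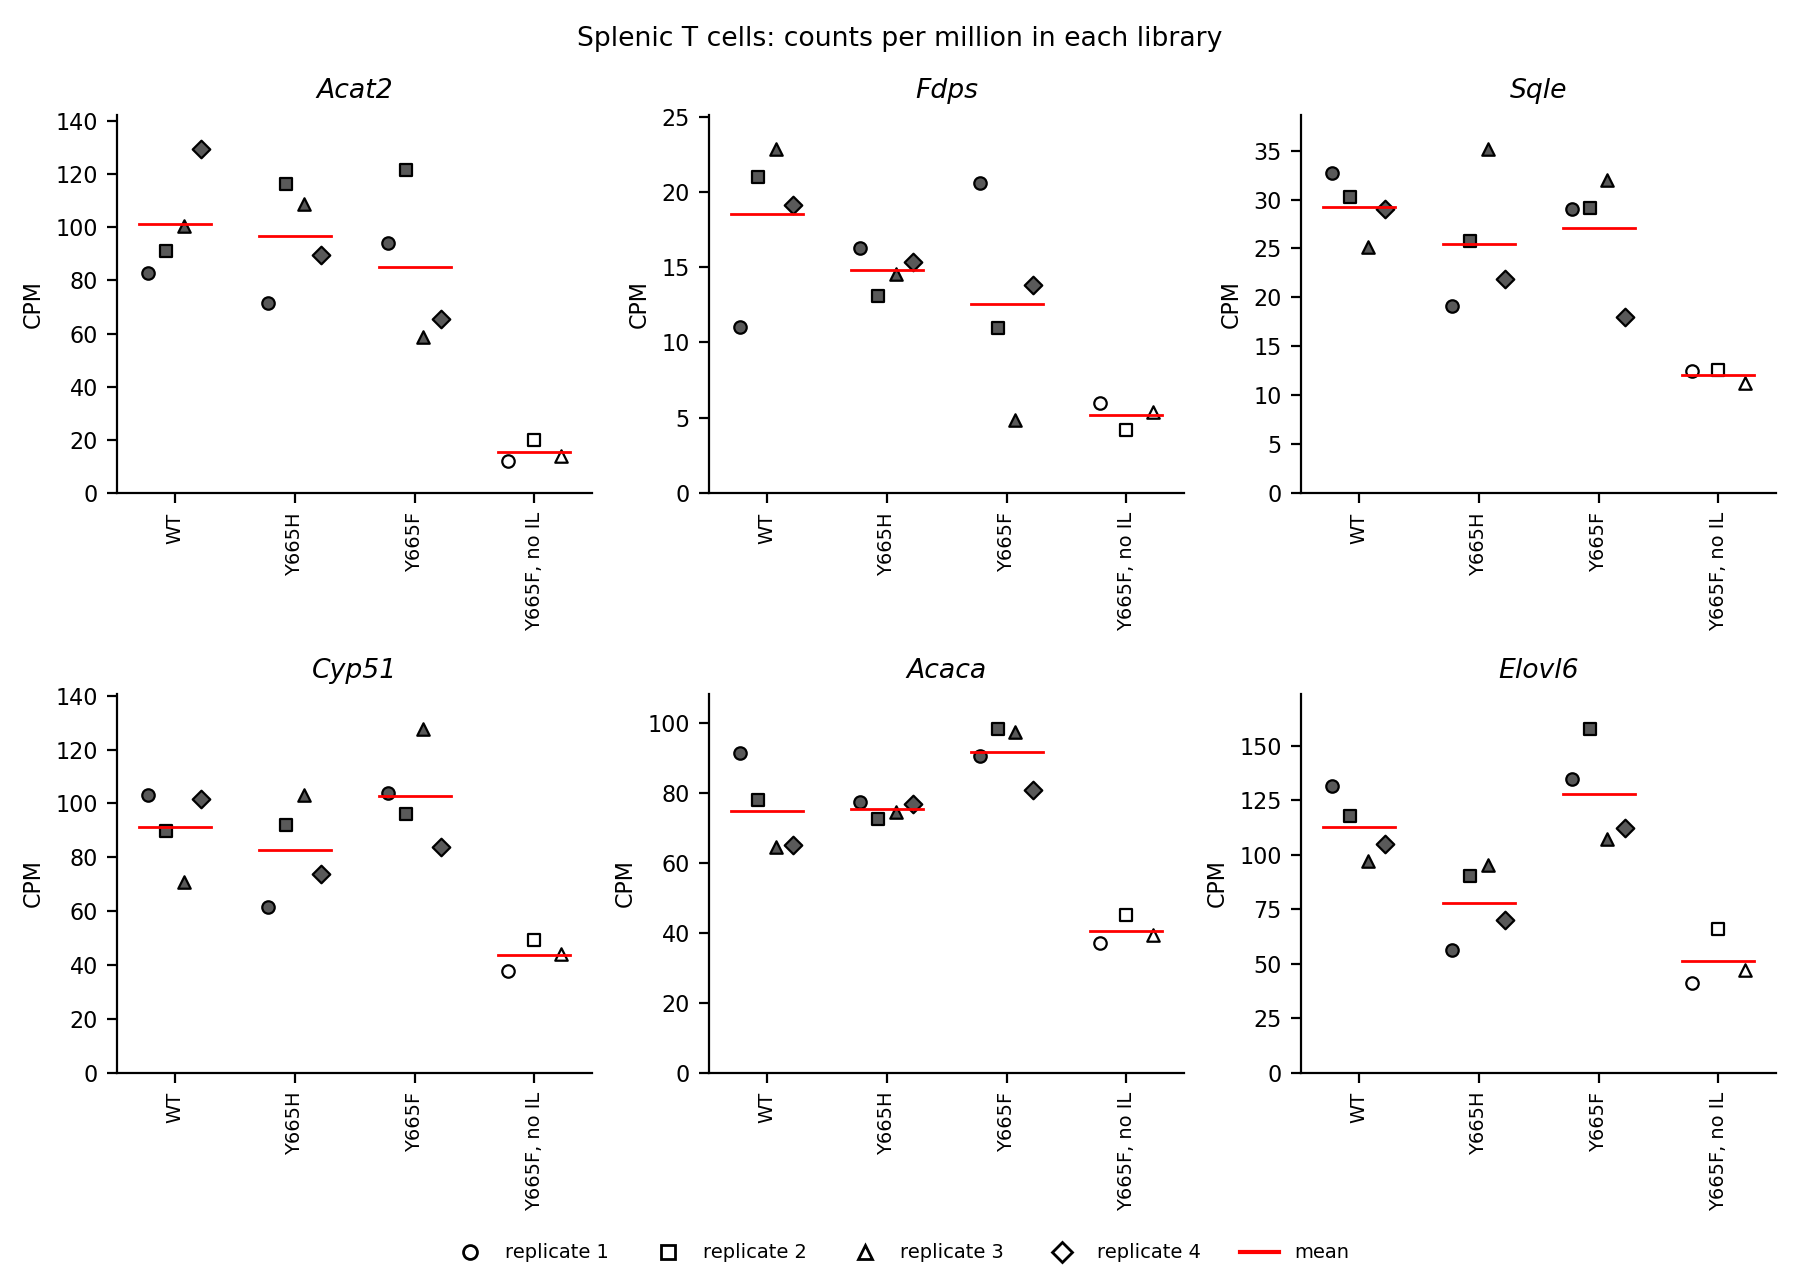
CPM of Acat2, Fdps, Sqle, Cyp51, Acaca and Elovl6 in each splenic T cell library, with open symbols for Y665F cells without interleukin and filled symbols for the other groups, shape for library number and a red line at the mean. Y665H library 4 holds the reads of libraries 1 and 2. Open symbols lie below almost all filled ones.

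Between genotypes with interleukins, Scd1, Scd2, Elovl6 and Acss2 passed the threshold with all 15 libraries, and Scd1 alone without Y665H library 4, ACSS2 being the enzyme that turns acetate into acetyl-CoA. Elovl6 had 132, 118, 97.2 and 105 CPM in WT and 56.2, 90.4, 95.5 and 70.0 in Y665H cells, beside the Y665F values given. Acss2 had 50.7, 49.4, 68.2 and 52.2 in WT, 72.0, 48.6, 54.4 and 64.3 in Y665H and 45.2, 37.2, 18.3 and 24.5 in Y665F cells. Elovl6 was lower in all Y665H than in all Y665F libraries, and Acss2 higher. Scd1 had 10.8, 0.652, 3.75 and 1.11 in WT, 0.857, 0, 0.695 and 0.548 in Y665H and 1.33, 2.62, 96.1 and 27.1 in Y665F cells, and Scd2 18.8, 16.3, 19.8 and 11.5; 5.14, 13.6, 18.7 and 8.40; and 19.4, 20.8, 43.0 and 29.9. Without interleukin Scd1 had 2.68, 7.25 and 3.82 and Scd2 10.6, 13.4 and 14.3. Scd1 was high in Y665F libraries 3 and 4 only and rested on 3, 0 and 10 reads in Y665H libraries 1 to 3, while Scd2 was higher in every Y665F than in every Y665H library.

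With all 15 libraries, Y665F against Y665H gave 2 members called higher (Scd1 and Scd2) beside 3.43% of all genes, 3 past at any fold beside 4% and 1 lower (Acss2) beside 2.18%. Without Y665H library 4, 1 member passed (Scd1) beside 2.74% of all genes in either direction, with 6 at unadjusted p under 0.05. Leaving out Y665H 1, 2 or 3 as well left 0. By edgeR with all 15 libraries, Scd1 stood at 5.63 ± 1.18 (SE; adjusted p = 0.00469) and Scd2 at 1.26 ± 0.33 (SE; adjusted p = 0.0227), Elovl6 at 0.72 ± 0.20 (SE; adjusted p = 0.0382) and Acss2 at -0.92 ± 0.25 (SE; adjusted p = 0.0282). Without Y665H library 4, Scd1 rose by 5.59 (adjusted p = 0.0148), while Scd2 (1.15, adjusted p = 0.0975), Elovl6 (0.70, adjusted p = 0.144) and Acss2 (-0.85, adjusted p = 0.124) did not pass. Without Y665H 1, 2 or 3 as well, Scd1 did not pass either (5.73, adjusted p = 0.0691; 5.35, adjusted p = 0.0673; and 5.84, adjusted p = 0.103). A change of Scd2, Elovl6 or Acss2 between Y665F and Y665H was thus not established. Of single Y665F libraries left out of the 15, Elovl6 was lost without Y665F 1 (0.72), Y665F 2 (0.60) or Y665F 4 (0.77), Acss2 without Y665F 3 (-0.75) or Y665F 4 (-0.81) and Scd2 without Y665F 3 (0.99) or Y665F 4 (1.23). The called count of 2 was 1 without Y665F 3 or 4. At any fold, 4 became 1 without Y665F 4 and 2 without Y665F 3. With all 15, 7 had unadjusted p under 0.05, and DESeq2 gave 6 (4 higher and 2 lower) beside 10.8% of all genes. Over members the median was -0.16 and over all genes 0.13, or -0.16 and 0.15 without Y665H library 4.

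Y665F against WT gave 0 members past by edgeR beside 1.87% of all genes, with 7 at unadjusted p under 0.05 and 4 by DESeq2 (3 higher and 1 lower) beside 7.37%. Scd1 stood at 2.94 ± 0.89 (adjusted p = 0.0872) and Acss2 at -0.80 ± 0.25 (adjusted p = 0.091). Scd1 passed without WT 1 (4.02), Y665F 1 (3.34) or Y665F 2 (3.34), and by DESeq2 (3.28, adjusted p = 0.0465). The count of 0 became 1 without WT 1 or Y665F 2 and 3 without Y665F 1, and stayed 0 without Y665H library 4 (Scd1 2.92, adjusted p = 0.0919), beside 1.44% of all genes. The median over members was -0.29 and over all genes 0.07, or -0.14 and 0.21 with RLE scaling and -0.14 and 0.22 with DESeq2. Y665H against WT gave 0 beside 0.0762%, with 2 at unadjusted p under 0.05 and 0 by DESeq2. Without Y665H library 4 it gave 0 members and 0 of all genes, with 1 member at unadjusted p under 0.05. Its lowest value was Scd1 at -2.69 ± 1.19 (adjusted p = 0.536), and its medians were -0.15 over members and -0.11 over all genes (-0.00 by DESeq2). The 3 comparisons of genotypes share their groups.

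Hmgcs1 had 122, 112, 97.8 and 138 CPM in WT and 68.0, 119.6, 129 and 88.4 in Y665H cells, and Sqle 32.7, 30.3, 25.1 and 29.1 against 19.1, 25.8, 35.2 and 21.9. Insig1 had 55.3, 69.6, 68.2 and 59.9 against 57.4, 65.1, 72.2 and 61.2. The genotypes overlapped for these genes. Srebf1 had 16.1, 21.9, 50.7 and 17.2 in WT and 51.4, 19.9, 12.0 and 40.4 in Y665H cells, Srebf2 61.8, 59.8, 91.5 and 42.1 against 120.5, 46.2, 41.8 and 94.5, and Fasn 87.7, 138, 246 and 86.2 against 188, 55.4, 76.4 and 141. WT library 3 was the highest of WT for Srebf1, Srebf2 and Fasn alike, as was library 1 of Y665H, whose reads are also in library 4.

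SCD1 is also made by cells other than T cells, so markers were read in the same libraries. The 6 B cell genes summed to 73.8, 11.9, 46.8 and 16.2 CPM in WT, 11.1, 25.8, 23.6 and 16.8 in Y665H, 14.3, 23.8, 486 and 134 in Y665F and 19.5, 32.3 and 23.9 in Y665F cells without interleukin. Y665F libraries 3 and 4 held by far the most, with Cd79b or Ms4a1 the most abundant gene of the list in every library. The same 2 held 839 and 67.7 CPM of 8 erythroid genes, with Alas2 at the top. Without these 2 libraries Scd1 stood at -1.03 against WT (adjusted p = 0.905), 1.68 against Y665H (adjusted p = 0.419) and -1.23 against cells without interleukin (adjusted p = 0.33), where it had been 2.73 (adjusted p = 0.144). Without them Scd2 against Y665H was 0.78 (adjusted p = 0.328), Acss2 -0.54 (adjusted p = 0.336) and Elovl6 0.91 (adjusted p = 0.0373). Without Y665H library 4 in addition, 0 members passed against Y665H. Although T cells had been isolated with a kit, the level of Scd1 in Y665F T cells and the share of other cells cannot be told apart here. The 8 T cell genes summed to 2227, 2809, 3198 and 2566 in WT, 2297, 2132, 2265 and 2271 in Y665H, 2590.0, 2298, 969.9 and 1562 in Y665F and 1574, 1328 and 2099 without interleukin.

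Proliferation genes summed to 314, 414, 375 and 389 CPM in WT and 156, 276, 349.5 and 204 in Y665H T cells. Neutrophil genes summed to 11.6, 4.52, 7.17 and 9.51 in WT, 18.8, 45.2, 62.4 and 29.1 in Y665H, 61.4, 62.0, 222 and 59.6 in Y665F and 47.0, 143 and 67.9 in Y665F cells without interleukin. Reads without a gene were 63.9 to 72.6% of reads in WT and 68.7 to 71.9% in Y665H libraries, and highest among the libraries with interleukin in Y665F 3 and 4 (84.0 and 79.6%), which also held the most B cell marker reads and Scd1.

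**Figure D4:**
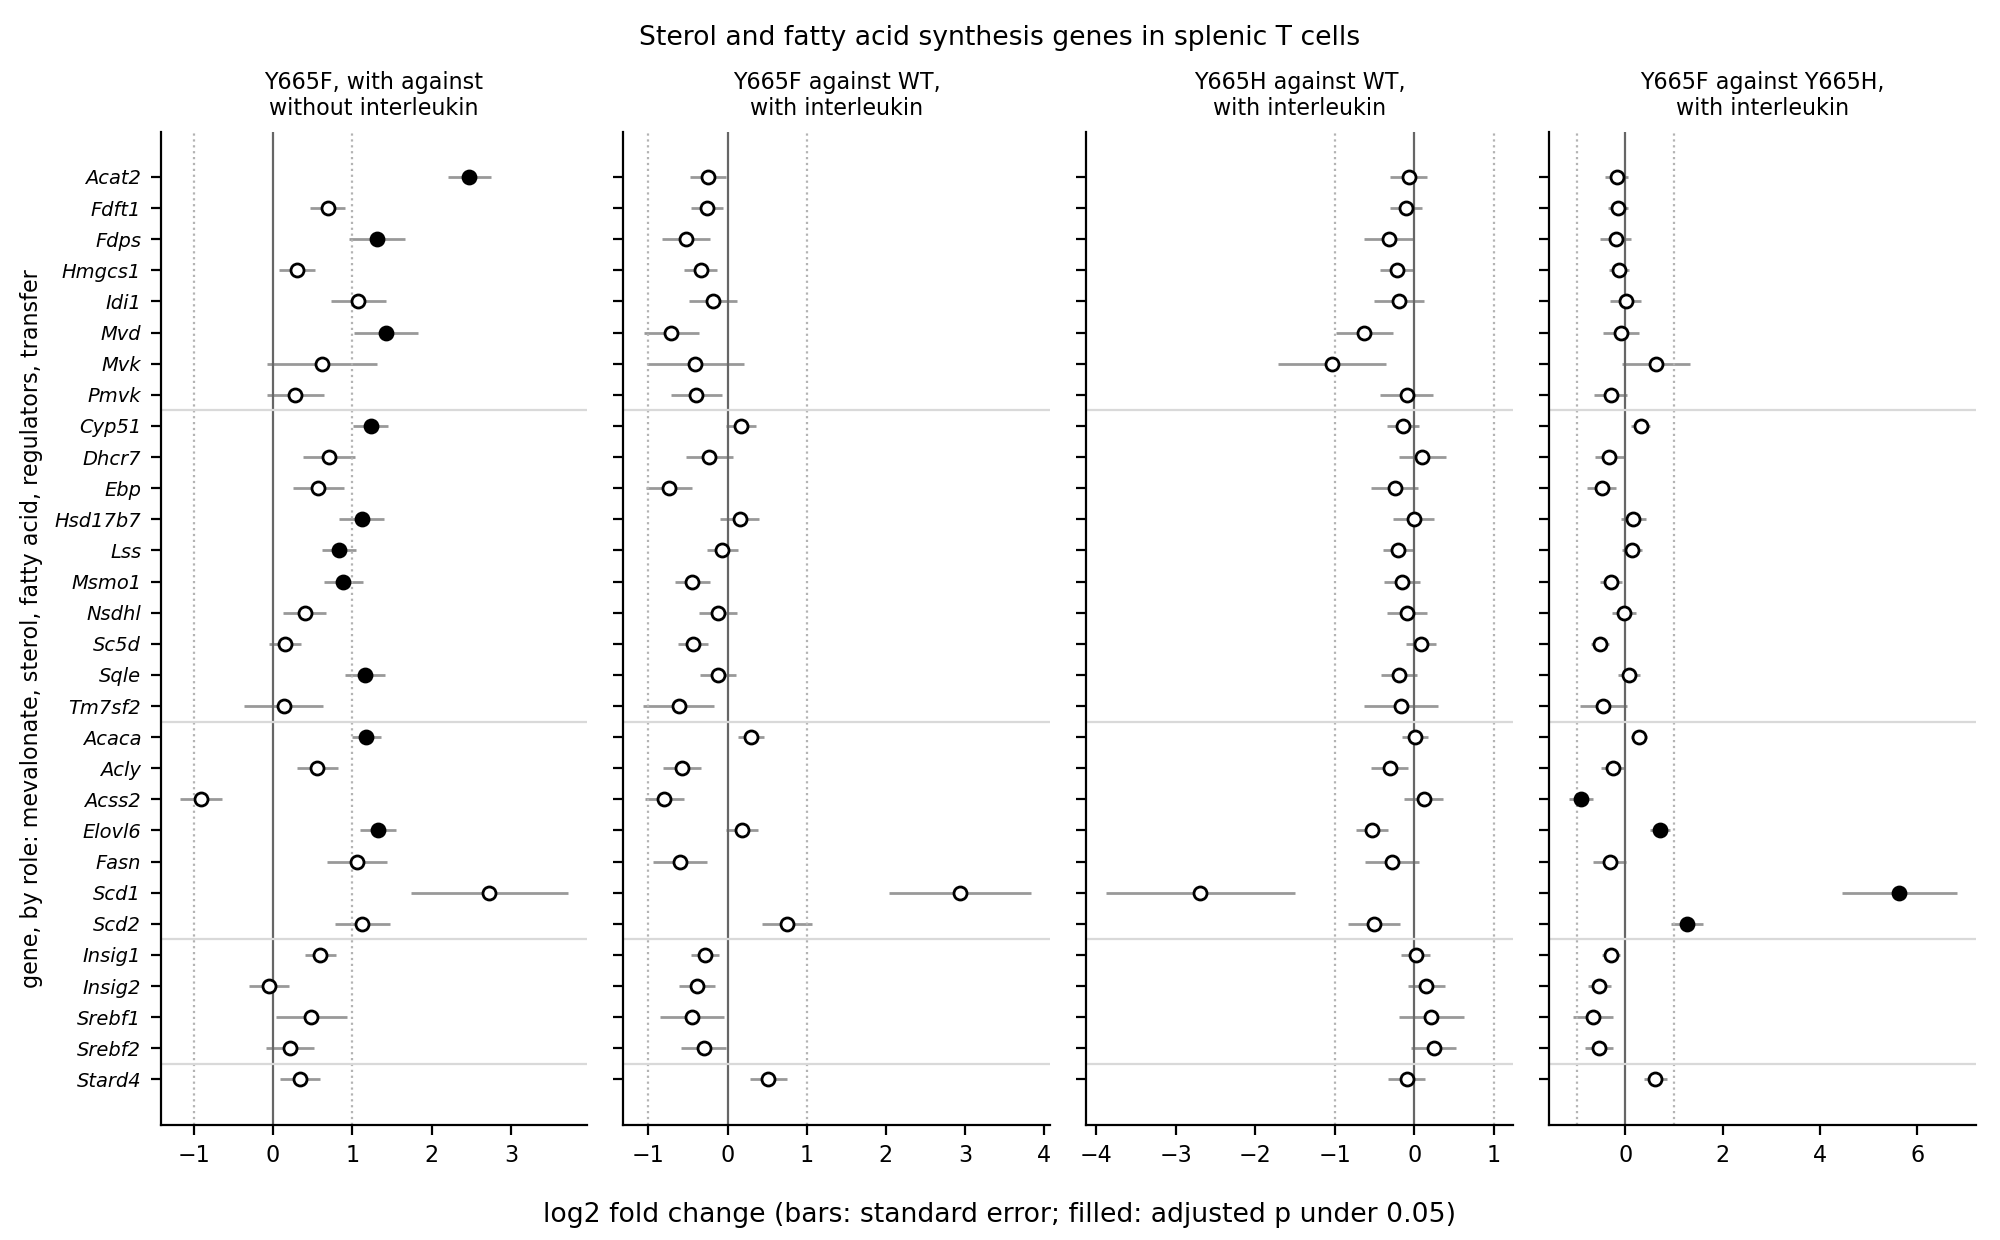
Log2 fold changes with SE of the 30 members in 4 comparisons of splenic T cells. Filled points have adjusted p under 0.05, dotted lines mark -1 and 1, and panels differ in horizontal range. All 15 libraries were used, Y665H library 4 included. With interleukin most members lie right of zero, and Scd1 has the widest bars.

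**Figure D5:**
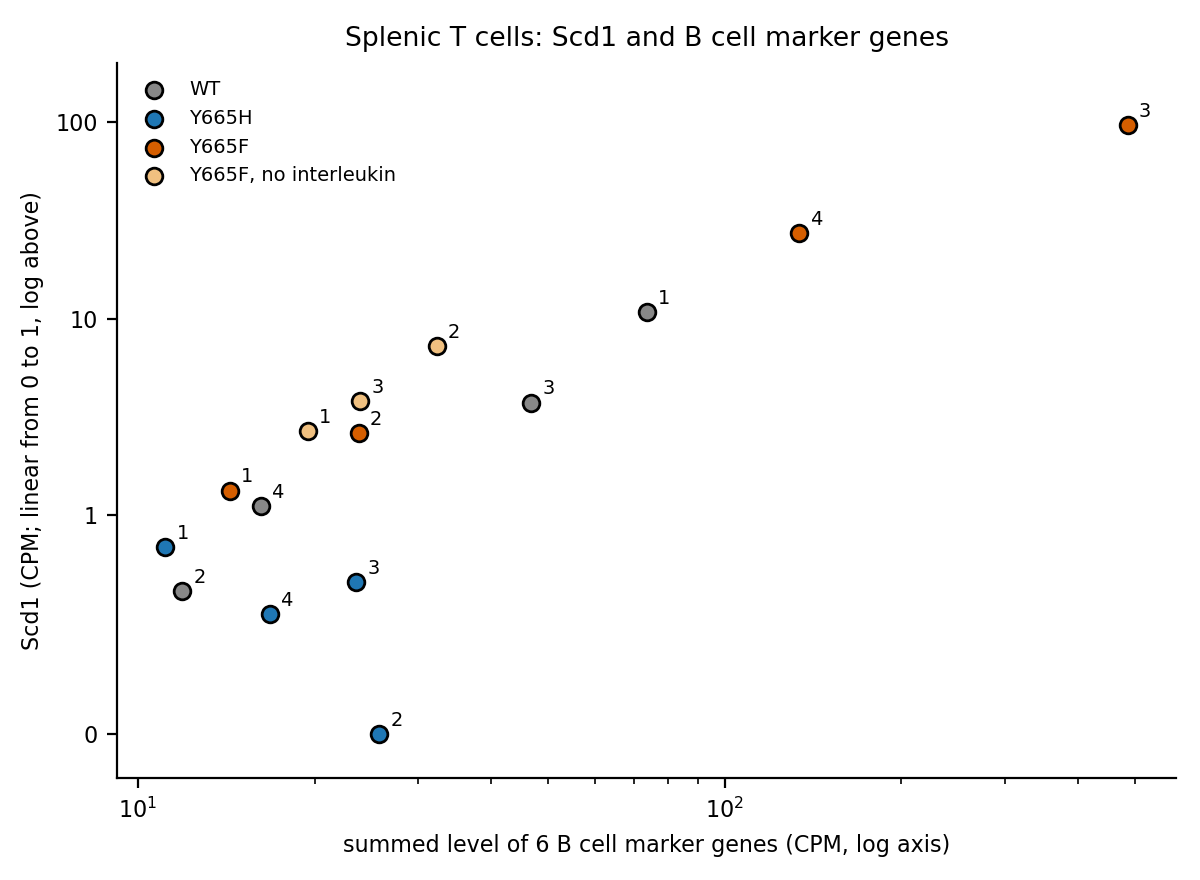
Scd1 CPM against summed B cell marker CPM in each splenic T cell library, with a logarithmic horizontal axis, a vertical axis linear up to 1 and logarithmic above, color for group and the library number beside each point. The 2 Y665F libraries with the most B cell marker reads also have the most Scd1.

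Spleens hold many cell types, and Scd1 there had far more reads than in cultured T cells. All differences of members were small, between -0.36 and 0.58 on the log2 scale over the 3 comparisons, which share their groups.

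Acss2 had 23.9, 21.5, 24.4 and 23.2 CPM in WT and 21.9, 28.7, 29.5, 25.8 and 29.0 in Y665H spleens, and lowest, median and highest values of 27.1, 29.3 and 32.2 in Y665F spleens. Fasn had 82.5, 81.9, 130.2 and 118 in WT, 157, 113, 128, 121 and 201 in Y665H and 115, 149 and 173 in Y665F. Srebf1 had 20.7, 25.1, 43.6 and 37.7 in WT, 44.8, 33.7, 42.9, 37.9 and 34.1 in Y665H and 35.9, 48.1 and 52.2 in Y665F. Acss2 was higher in all 7 Y665F than in all WT spleens, and Fasn and Srebf1 in 6 of 7, WT spleens 1 and 2 being low for both. Srebf2 had 67.2, 85.8, 103 and 107; 133, 84.2, 93.3, 96.6 and 89.2; and 102, 124 and 148 in the same order. Insig1 had 43.4, 41.1, 40.2 and 44.4; 44.5, 35.5, 39.2, 37.6 and 35.6; and 31.0, 35.0 and 38.8, and Scd1 652, 704, 535 and 654; 598, 427, 402, 539 and 552; and 469.5, 519 and 547. Insig1 was lower in all 7 Y665F than in all WT spleens, Scd1 in 4 of 7, and Srebf2 higher in 6 of 7.

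Y665F against WT spleens gave 4 members higher beside 5.63% of 19418 genes and 2 lower beside 6.59%, by edgeR at adjusted p under 0.05. These were Acss2 (0.35 ± 0.08, adjusted p = 0.0118), Fasn (0.53 ± 0.16, adjusted p = 0.0405), Srebf1 (0.56 ± 0.16, adjusted p = 0.0331), Srebf2 (0.47 ± 0.14, adjusted p = 0.0328), Insig1 (-0.27 ± 0.08, adjusted p = 0.0267) and Scd1 (-0.30 ± 0.10, adjusted p = 0.0499). Acss2 was lost without WT 2 (0.32), Fasn without WT 1 (0.44), WT 2 (0.44), Y665F 1 (0.51), Y665F 5 (0.49) or Y665F 7 (0.53) and Srebf1 without WT 1 (0.41), WT 2 (0.47), Y665F 5 (0.54) or Y665F 7 (0.56). Srebf2 was lost without WT 1 (0.35), WT 2 (0.45), Y665F 5 (0.43) or Y665F 7 (0.46) and Insig1 without WT 1 (-0.25), WT 2 (-0.28), WT 4 (-0.24), Y665F 1 (-0.25) or Y665F 2 (-0.23). Scd1 was lost without WT 1 (-0.28), WT 2 (-0.24), WT 4 (-0.28), Y665F 1 (-0.27), Y665F 2 (-0.28), Y665F 3 (-0.29), Y665F 4 (-0.30), Y665F 5 (-0.31), Y665F 6 (-0.30) or Y665F 7 (-0.31). The count of 6 became 1 without WT 1, 0 without WT 2, 3 without Y665F 1 and 2 without Y665F 5 or 7. In all, 10 had unadjusted p under 0.05, and DESeq2 gave 9 (7 higher and 2 lower) beside 16.7% of all genes.

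FDFT1 joins farnesyl diphosphate into squalene. Fdft1 had 24.3, 22.9, 23.1 and 21.0 CPM in WT, 25.6, 32.0, 32.1, 27.8 and 29.7 in Y665H and 22.4, 23.0 and 23.9 in Y665F spleens. All Y665H values were above all of the others. Y665H against WT gave 1 member higher beside 10.7% of all genes and 1 lower beside 9.05% (edgeR): Fdft1 rose by 0.37 ± 0.07 (SE; adjusted p = 0.00312) in 5 of 5 spleens and Scd1 fell by 0.34 ± 0.10 (adjusted p = 0.0303), below every WT spleen in 2 of 5. Scd1 was lost without WT 1 (-0.30), WT 2 (-0.26), WT 4 (-0.34), Y665H 2 (-0.28) or Y665H 3 (-0.27). The count of 2 became 1 without WT 2 or Y665H 3, 7 without WT 3 and 6 without Y665H 1. Unadjusted p was under 0.05 for 9 members, and DESeq2 gave 5 (3 higher and 2 lower) beside 23.0% of all genes.

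DHCR7 completes cholesterol and STARD4 moves it between membranes. Dhcr7 had 18.4, 14.5, 17.0, 16.5 and 11.3 CPM in Y665H and 17.7, 19.1 and 20.7 in Y665F spleens, Stard4 27.6, 33.2, 35.0, 30.8 and 33.2 against 33.2, 35.7 and 43.6, and Acat2 14.7, 17.5, 15.97, 14.9 and 16.01 against 12.2, 12.8 and 13.5. Acat2 did not overlap between the genotypes, while Dhcr7 and Stard4 overlapped. Y665F against Y665H gave 2 members higher beside 10.5% of all genes and 2 lower beside 15.3% (edgeR). Fdft1 was -0.36 ± 0.06 (SE; adjusted p = 0.00069) and Acat2 -0.31 ± 0.07 (SE; adjusted p = 0.00336), both in 7 of 7 Y665F spleens, with Dhcr7 at 0.30 ± 0.10 (SE; adjusted p = 0.0361) and Stard4 at 0.22 ± 0.08 (SE; adjusted p = 0.0492) above every Y665H spleen in 5 of 7. Dhcr7 was lost without Y665H 2 (0.28), Y665H 5 (0.23), Y665F 5 (0.27) or Y665F 7 (0.28), and Stard4 without Y665H 1 (0.15), Y665H 2 (0.24), Y665H 4 (0.23), Y665H 5 (0.26), Y665F 2 (0.22), Y665F 3 (0.20), Y665F 5 (0.23), Y665F 6 (0.24) or Y665F 7 (0.20). The count of 4 became 2 without Y665H 2, Y665H 5, Y665F 5 or Y665F 7. Unadjusted p was under 0.05 for 6 members, and DESeq2 gave 5 (3 higher and 2 lower) beside 28.3% of all genes.

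Over the 3 comparisons the medians of members were 0.03, 0.01 and 0.08, against -0.00, 0.00 and -0.01 over all genes. Marker genes differed among the same spleens. Proliferation genes summed to 2758, 1476, 2638 and 1405 CPM in WT and 2068, 8037, 7170.0, 5230.0 and 7918 in Y665H spleens, where 10 of 10 rose, and from 1304 to 3335 in Y665F spleens. Y665H spleen 1 was low for these genes and for neutrophil and erythroid genes. Neutrophil genes summed to 90.8, 897, 1265, 311 and 1172 and erythroid genes to 323, 1874, 2401, 1721 and 2084 in Y665H, against 161 to 256 and 504.5 to 960.0 in WT and 301 to 725 and 217 to 703 in Y665F. T cell genes summed to 548 to 633 in WT, 363 to 527 in Y665H and 725 to 982 in Y665F, and B cell genes to 2192 to 2494, 1636 to 2447 and 1779 to 2331. Adipocyte genes summed to 92.9, 22.3, 18.0, 45.9 and 378 in Y665H, the last being the highest of all spleens. Macrophage genes summed to 1099 to 1352 in WT, 746 to 1450.0 in Y665H and 752 to 1030.0 in Y665F. Liver genes reached 135 in Y665F spleen 4 and pancreas genes 56.4 in Y665H spleen 2. Cell shares and the level of a member in each cell cannot be told apart here.

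In spleens, other lipid genes also passed adjusted p under 0.05 by edgeR. ELOVL5 lengthens polyunsaturated chains, ACSL3 activates fatty acids and ME1 makes NADPH. Among them were Scap (0.36, adjusted p = 0.0447) and Acsl3 (-0.38, adjusted p = 0.0102) for Y665F against WT, Fads2 (0.67, adjusted p = 0.0358), Ch25h (0.62, adjusted p = 0.0337) and Elovl5 (-0.36, adjusted p = 0.00148) for Y665H against WT, and Elovl5 (0.41, adjusted p = 4.08e-05) and Me1 (-0.79, adjusted p = 0.016) for Y665F against Y665H.

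Some members share bases with neighboring genes in GENCODE vM21, so the strand setting of counting, which was not given, matters for them. On the same strand, Fdps shares 26.7% of its exonic bases with Gm43738, which is not in the count files, and Tm7sf2 12.1% with Vps51. On the opposite strand, Fdft1 shares 18.3% with Ctsb and Hmgcs1 12.1% with Gm48342.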

How the data were processed

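RNA was measured in 61 libraries. The authors trimmed reads with Trimmomatic 0.36, aligned them to mm10 with STAR and made the deposited counts with HTSeq 0.9.1; the annotation and strand setting of counting were not given. Reads without a gene were 28.4 to 36.9% of reads in CD4 libraries, 63.9 to 85.7% in splenic T cells and 62.8 to 69.4% in spleens, and stayed out of library sizes. No library was identical to another. Over all 1830 pairs of libraries, 1 pair summed to another library: Y665H T cell libraries 1 (3310342 reads on genes) and 2 (2017012) gave library 4 (5327354) in all 24421 genes. The planned fit of 15 T cell libraries was kept, and results without library 4 were added after seeing the data.

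From these counts, CPM after TMM scaling and fold changes were computed in R 4.3.3 with edgeR 4.0.16 (limma 3.58.1), by quasi-likelihood tests on genes with at least 10 reads in all and Benjamini-Hochberg adjustment over all genes tested: 20113 in null CD4, 20509 in WT CD4, 21975 in both, 22313 in splenic T cells and 19418 in spleens. A gene was called at adjusted p under 0.05 and log2 fold change beyond 1. Scripts were tested on simulated data. Alternatives were RLE scaling, DESeq2 1.42.0, filterByExpr, no filter, a replicate block, only the groups compared, no fold minimum, thinned counts and each library left out. Replicate numbers were checked as pairs by residual correlations. Same-number pairs exceeded 0.1 in 30 of 30 for null CD4, 29 of 30 for WT CD4 and 94 of 135 for both. In splenic T cells 5 of 21 did so, and in spleens 4 of 13. Pairing was taken as established only where every pair did so over all genes, in null CD4.

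The members and the lists of STAT5 targets, proliferation, cell type and other lipid genes were chosen with earlier results of these data known. Some of the other lipid genes are not reported. Values in every library were given for Hmgcs1, Sqle, Srebf1, Srebf2, Insig1, Fasn, Scd1 and Scd2 in CD4 and T cells, and for up to 3 further members that rose most and up to 3 that fell most in a comparison, at adjusted p under 0.05. For Y665F spleens, only the lowest, median and highest values were given. Nothing in the labels says whether libraries are separate animals or cultures, so p-values measure only the spread between samples.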

Additional observations from a re-analysis of the deposited data

Results flagged for a closer look

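In 12 measures, 72 groups of libraries were checked for a library far from the rest, scored as its distance to the nearest other library over the range of the group; 6 groups were flagged. Chance alone flags about 1 in 20 groups. The summed sterol arm of Y665H T cells had 379.8 CPM in library 3 against 300.4 to 308 in the others (score 0.907), but library 4 was the sum of libraries 1 and 2, which leaves 3 separate libraries and no valid score. Srebf1 in T cells had 50.7 CPM in WT library 3 against 16.1 to 21.9 (score 0.832) and 6.71 in Y665F library 3 against 21.9 to 23.9 (score 0.884). In Y665F spleens, Sqle had 30.7 CPM in spleen 3 against 20.8 to 25.0 (score 0.573), and Srebf1 had 35.9 in spleen 6 against 45.4 to 52.2 (score 0.583). Srebf2 had 133 CPM in Y665H spleen 1 against 84.2 to 96.6 (score 0.744), the same spleen that was low in proliferation, neutrophil and erythroid genes. The causes were not tested.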

How the results depend on the processing

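For 74 results on single members, 1118 alternatives were computed: 861 kept direction and side of the threshold, 237 lost the threshold, 16 gained it and 4 reversed direction. All reversals were Scd1 in splenic T cells without the 2 Y665F libraries richest in B cell marker reads (chosen after seeing the data): -1.03 against WT and -1.23 against cells without interleukin, and the same when Y665H library 4 was left out too. The cause was not tested.

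Counts of called members that moved by more than 1.5 times were as follows, and the cause was not tested unless the fold minimum was dropped. In null CD4 cells against empty vector, STAT5B went from 0 to 1 with the replicate block, 1 with only the groups compared and 1 with no fold minimum. N642H went from 2 to 1 with no filter and 6 with no fold minimum, and Y665F from 1 to 0 with only the groups compared and 5 with no fold minimum. Null against WT cells with empty vector went from 7 to 21 with no fold minimum. In splenic T cells, Y665F against WT went from 0 to 1 with DESeq2 and 1 with thinned counts. Y665F against Y665H went from 2 to 1 with only the groups compared, 1 with thinned counts, 0 without the 3 shallowest libraries (though Y665H library 4 kept the reads of 2 of them), 0 without the 2 libraries richest in B cell marker reads (chosen after seeing the data) and 4 with no fold minimum. It also went to 1 without Y665H library 4, which was the sum of libraries 1 and 2, to 0 without library 4 and any 1 of libraries 1, 2 and 3, and to 0 without library 4 and the 2 libraries rich in B cell marker reads (all chosen after seeing the data). Leaving out Y665H library 1, 2 or 4 alone did not remove a separate sample. With against without interleukin went from 8 to 5 with the replicate block, and smaller moves were to 9 with DESeq2 (8 higher and 1 lower), 10 with no fold minimum and 6 without Y665H library 4. With no fold minimum, the spleens went from 0 to 6 for Y665F against WT, 2 for Y665H against WT and 4 for Y665F against Y665H. All other comparisons stayed at 0. With single libraries left out, called counts ran from 0 to 3 for N642H, 0 to 3 for Y665F, 6 to 10 for null against WT, 0 to 3 for Y665F against WT T cells, 1 to 3 for Y665F against Y665H T cells and 4 to 9 for interleukin, and stayed 0 elsewhere. Members past adjusted p under 0.05 at any fold went from 4 to 1 for Y665F against Y665H and from 10 to 6 for interleukin without Y665H library 4.

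Outside null CD4 cells the library numbers were not established as pairs, although 14 of 15 WT CD4 libraries correlated best with their own number in another group, against 2 of 15 in T cells and 1 of 16 in spleens. With the replicate block, members past adjusted p under 0.05 in WT CD4 cells against empty vector went from 0 to 1 for STAT5B (1.09% of all genes; Scd1), 4 for N642H (8.28%; Scd1, Scd2, Acat2 and Lss), 3 for Y665F (12.0%; Scd1, Scd2 and Acat2) and 0 for Y665H (0.00488%). For null against WT cells with empty vector, 21 went to 25, all lower (18.6%). For the N642H response in null minus WT cells, 0 went to 1 (1.48%, Elovl6). In T cells, 4 went to 2 for Y665F against Y665H (4.06%) and 10 to 5 for interleukin (2.56%). In spleens, 6 went to 0 for Y665F against WT (2.30%) and 4 to 2 for Y665F against Y665H (13.3%), while Y665H against WT kept 2 (10.8%).

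Depth limited the reading of weakly expressed members in splenic T cells, where Scd1 in Y665H cells rested on at most 10 reads. With 3 libraries in a CD4 group, single libraries decided whether several members passed in the fits without library number. A member short of the threshold was thus not shown to be unchanged.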
